A study of Caenorhabditis elegans with 32 samples.

Results

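The histone genes of Caenorhabditis elegans were taken as every gene whose symbol is his- followed by a number. In the RefSeq gene table (assembly WBcel235), 72 genes carry such a symbol, and 47 of them had at least 1 probe on the array, with 79 probes between them. These 47 were all tested, with no filter on low values, among 25497 genes in all, and the 25 histone genes without a matched probe were not analysed here. Whole worms were collected at adult day 7 for 1-colour Agilent arrays, 32 in all, in 8 groups of 4. The strains were the csa-1(tm4539);csb-1(ok2335) double mutant, csb-1(ok2335), csa-1(tm4539) and the wild type N2, in whose background all mutants stand, and each strain received 500 µM nicotinamide riboside (NR, a precursor of NAD+) or water as vehicle from the L4 larval stage. The study asked how the loss of csa-1 and csb-1, the worm genes of the transcription-coupled repair factors CSA and CSB, and the supply of an NAD+ precursor change the state of ageing worms. Its methods give worms fluorodeoxyuridine, an inhibitor of DNA synthesis that keeps eggs from being laid, unless otherwise noted, and do not say separately whether the worms on the arrays had it.

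A nucleosome wraps DNA around a core of the histones H2A, H2B, H3 and H4, and the linker histone H1 binds the DNA between cores. Core histone genes are present in many near-identical copies, mostly in clusters, and are transcribed mainly while DNA is copied, which in an adult worm takes place chiefly in the germline and in embryos. Their mRNAs typically end in a stem-loop in place of a poly(A) tail, and the labelling kit named in the labels primes from poly(A), so that their signal can depend on how much of the message carries a tail. Variants of H3 of the H3.3 type, by contrast, are made and put into chromatin throughout the cell cycle.

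By class, the array held 1 of 1 gene for H1, 8 of 16 for H2A, 10 of 17 for H2B, 11 of 15 for H3, 5 of 5 for the H3.3 type and 10 of 16 for H4. The H2A variant gene his-35 was kept apart from H2A, and his-73, a short gene model, was left without a class. Classes came from general knowledge of these loci, since no protein table was at hand. The gene models of a class were mostly of 1 length in bases, as copies of one gene would be: 384 in 15 of the 16 H2A genes, 372 in 10 of the 17 H2B genes, 411 in all 15 H3 genes and 312 in 15 of the 16 H4 genes. Each gene was represented by its brightest probe, 39 of the 47 having just 1, and a probe against one copy may also have taken up the message of others. Values are Z-scores, that is, log2 intensity minus the mean of the array over its genes' probes, divided by the SD of the array. By this measure histone messages were abundant: 44 of the 47 genes had a mean Z-score above 0 over the 32 arrays, and 44 were well above background on every array. The exceptions on both counts were his-70, an H3.3-type gene detected on 29 of 32 arrays, his-18, an H4 gene on 31, and his-73 on 31.

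Because copies share sequence, the number of distinct patterns was smaller than the number of genes. Grouping genes whose Z-scores over the 32 arrays correlated at r of at least 0.8 with every other member of a group gave 22 patterns for 47 genes. H3 was the most uniform class, with 3 patterns, a median r of 0.92 between its genes and 9 of its 11 genes in a single pattern, outside which were his-17 and his-45. In that pattern his-32 was represented by its brightest probe, from which its other probes differed, as given under H3. In H4, 6 of 10 genes (his-1, his-26, his-31, his-38, his-60 and his-67) shared 1 of 4 patterns, with a median r of 0.77 in the class. H2A formed 3 patterns (median r 0.72) and H2B formed 5 (median r 0.68), in which his-4, his-11, his-41 and his-58 each stood alone. The H3.3 type was the least uniform: its 5 genes formed 4 patterns, joined only his-69 with his-72, and had a median r of −0.03. Over all 1081 pairs of histone genes the median r was 0.72. These correlations are descriptive, since the 32 points share the brightness and spread of each array.

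**Figure D1:**
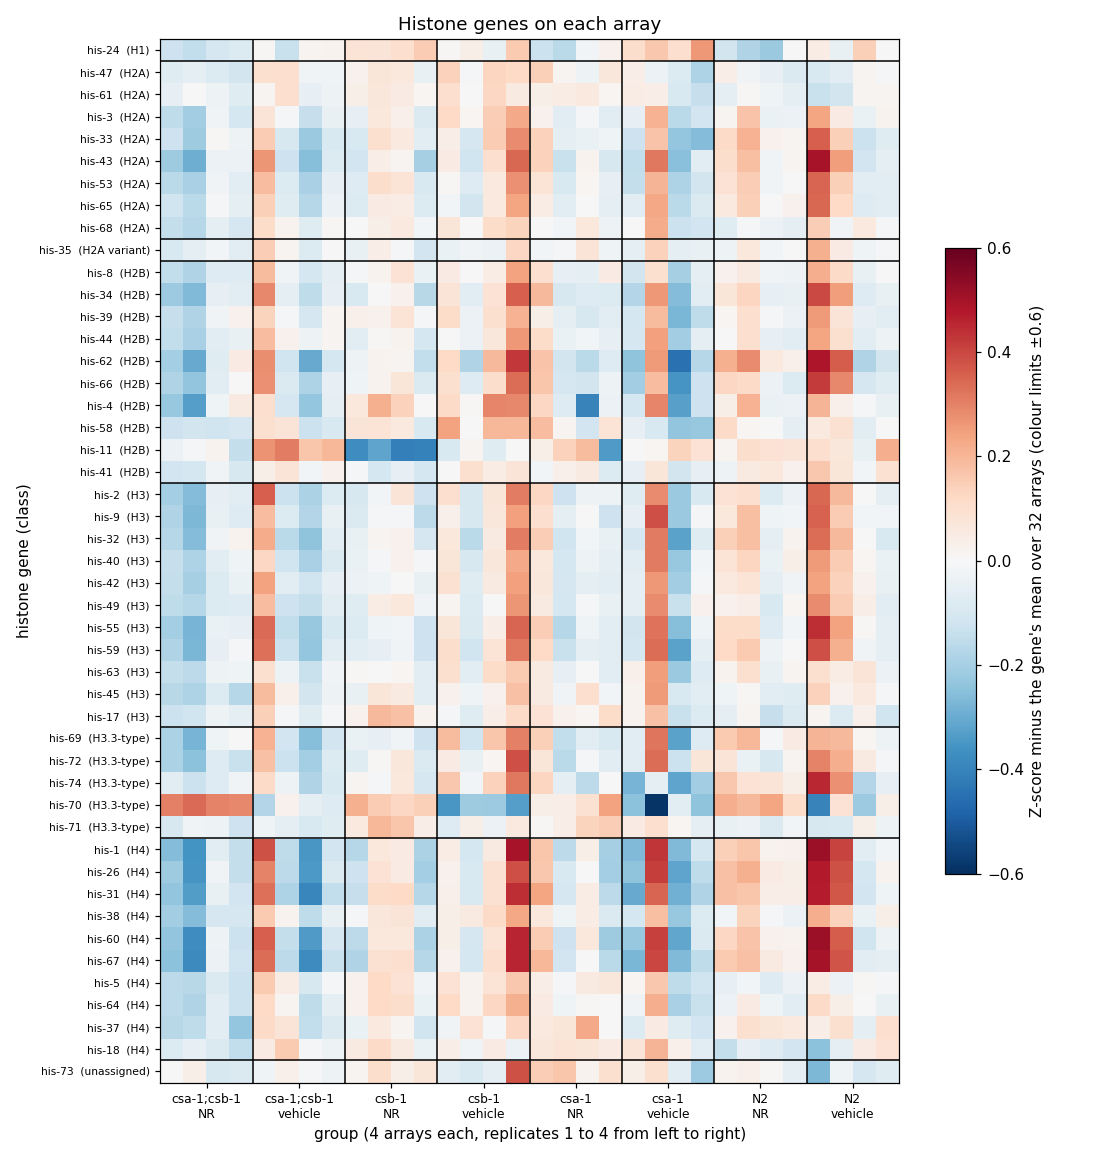
Z-score of each of the 47 histone genes (rows, by class) on each of the 32 arrays (columns, 4 per group), minus the mean of the gene over all arrays. Most H2A, H2B, H3 and H4 genes move as blocks from array to array (median r 0.72 over 1081 pairs), and his-70 departs from them, with higher values in every NR group.

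The arrays differed in ways that bear on these genes. The 75th percentile of intensity ran between 565 and 3883 units and the share of spots well above background between 46.9 and 78.4%. On 5 arrays, all of vehicle groups (double mutant replicate 1, csb-1 replicate 4, csa-1 replicate 2 and N2 replicates 1 and 2), the SD of log2 intensity lay below 3.5, and on these the mean Z-score over the 47 histone genes was 1.79 to 1.90, against 1.47 to 1.76 on the other 27. For the largest H4 pattern the mean was 2.97 to 3.13 on the 5 arrays and 2.27 to 2.81 on the others, with no overlap. The Z-scores of histone genes, which are divided by this SD, were thus higher on the narrow arrays. The part of this spread in the changes below was not tested beyond the values given without those arrays. Each group had its 4 arrays on 1 slide and in 1 scan, and slide and group therefore cannot be told apart. The strains were checked by 2 probes: the csb-1 probe that falls in csb-1 strains read −1.40 to −0.55 on their 16 arrays, but it also read −1.22 on the array labelled csa-1 NR replicate 4, against −0.05 to 0.00 on the other csa-1 NR arrays. On that array the csa-1 probe read 0.21, against −0.33 to −0.26. The other csb-1 probes did not fall in csb-1 strains: 1 of them averaged 0.84 in N2, 0.85 in csb-1 and 0.88 in the double mutant on vehicle. On the csa-1 vehicle arrays the csa-1 probe read −0.36, −0.62, −0.01 and −0.14, which overlapped the −0.20, −0.11, −0.44 and −0.00 of N2 on vehicle, so that it does not check the label of that group. The methods give 3 biological replicates per group, where the labels give 4 arrays, and they do not say whether replicates were separate cultures. The p-values thus measure the spread between these arrays, which may be technical.

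**Figure D2:**
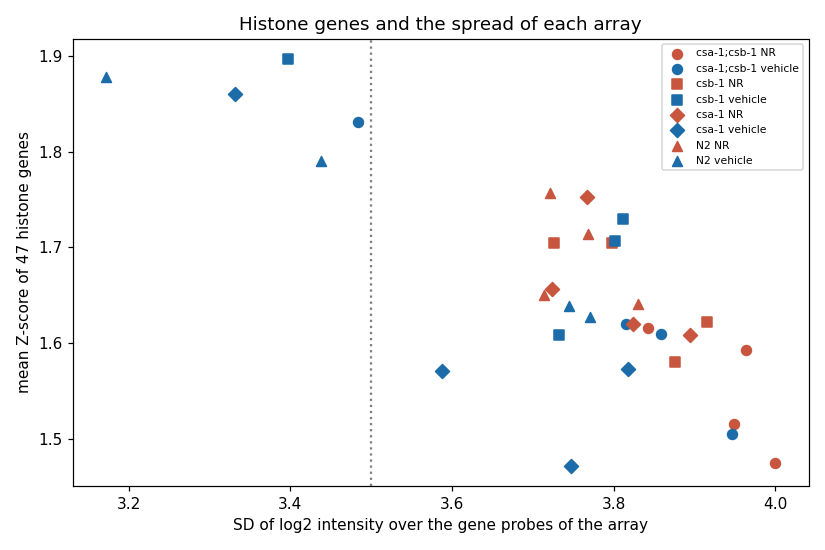
Mean Z-score of the 47 histone genes on each array (vertical axis) against the SD of log2 intensity of that array (horizontal axis), 1 point per array, with the group given by shape and colour and a dotted line at an SD of 3.5. The 5 arrays left of the line, all on vehicle, lie at 1.79 to 1.90, above the 1.47 to 1.76 of the other 27.

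Few histone genes were called between strains or with NR, which does not show that the others differed little. A gene was called with a limma adjusted p of at most 0.05 over all genes, a Z-ratio (the difference divided by the SD of all genes' differences) of at least 1.5 in either direction, and groups whose mean Z-score together exceeded 0. On vehicle, 0 of 47 histone genes were called in the double mutant, csb-1 or csa-1 against N2, where 0.686%, 0.651% and 0.667% of all genes were. At an unadjusted p under 0.05 there were 2 histone genes in the double mutant, 4 in csb-1 and 6 in csa-1, with 19.6%, 10.3% and 27.8% of all genes passing the same limit. These 3 comparisons share the N2 vehicle arrays.

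The median histone gene lay below N2 on vehicle in csa-1 and in the double mutant, by an amount that depended on the scaling. Log2 changes here are Z-score differences times 3.74, the average SD of log2 intensity per array. The median was −0.36 in the double mutant, with 39 of 47 genes lower (50.3% of all genes), and −0.41 in csa-1, with 41 of 47 lower (48% of all genes), against medians of −0.00 and 0.03 over all genes. In csb-1 it was −0.01, with 24 lower (47.7% of all genes) and 23 higher, and 0.09 to 0.50 under the other scalings, so that no direction is given there. The double mutant median was −0.21 after normexp background correction, −0.20 after 75th percentile scaling, where that of all genes was −0.16, and −0.09 with 30 of 47 lower after quantile normalization. In csa-1 it was −0.24 after quantile normalization and −0.09 with 26 of 47 lower after normexp. Without the 5 narrow arrays, a choice made after seeing the data, the medians were −0.21 in the double mutant, 0.21 in csb-1 and −0.37 in csa-1. By class the median in the double mutant was −0.62 for H4, −0.53 for H3, −0.22 for H2B and −0.39 for H2A, and in csa-1 −0.71 for H4, −0.35 for H3, −0.52 for H2B and −0.37 for H2A. The H4 median was −0.13 in the double mutant after quantile normalization and 0.16 in csa-1 after normexp. No gene of any of these classes passed the test.

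NR was set against vehicle within each strain. In the double mutant 46 of 47 histone genes had lower values under NR (median log2 change −0.38, but 0.13 after normexp background correction). In csb-1 41 did (−0.35, and −0.09 after quantile normalization) and in N2 39 (−0.18), whereas in csa-1 only 12 did (0.12). The csa-1 median was 0.30 after 75th percentile scaling, where that of all genes was −0.12. Of all genes, 49.8% were lower under NR in the double mutant, 51.3% in csb-1, 50.1% in N2 and 48.2% in csa-1. Their median was 0.00 in the double mutant, −0.02 in csb-1, −0.00 in N2 and 0.02 in csa-1. Called genes were few: 1 histone gene was lower under NR in the double mutant, where 1.39% of all genes were, 1 in csb-1 (0.494% of all genes) and 1 in csa-1 (0.635%). No histone gene was called higher in these strains, where 0.886%, 1.01% and 1.56% of all genes were, and limma called 0 in N2, where 0.871% of all genes were called and 2 histone genes had an unadjusted p under 0.05 (12.7% of all genes). Since all 5 narrow arrays are vehicle arrays, these medians move without them, to −0.10 in the double mutant, −0.15 in csb-1, 0.47 in csa-1 and 0.18 in N2, which turns the direction in N2. The N2 median was also 0.01 after 75th percentile scaling (−0.12 over all genes) and 0.02 after quantile normalization. No direction can therefore be given for histone genes under NR in N2.

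Under NR, mutants were again set against N2 on NR, and no narrow array enters these comparisons. The median histone change in the double mutant was −0.56 and 44 of 47 genes were lower, against 0.01 and 49.1% over all genes. It was −0.46 after 75th percentile scaling, where that of all genes was −0.14. It was −0.33 after quantile normalization and −0.08, with 27 of 47 lower, after normexp, where csb-1 had −0.11. csb-1 had a median of −0.14 (30 lower) and csa-1 one of −0.19 (31 lower, −0.08 after quantile normalization but 0.23 after normexp), against −0.04 and −0.01 over all genes, of which 53.6% and 50.9% were lower. In the double mutant 1 histone gene was called, lower, and 0 higher, where 0.812% of all genes were lower and 0.498% higher. In csb-1 1 was called higher and 1 lower, where 2.06% of all genes were higher and 0.867% lower. In csa-1 0 were called, where 0.361% of all genes were, and 3 histone genes had an unadjusted p under 0.05 (13.4% of all genes). These comparisons share the N2 NR arrays.

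**Figure D3:**
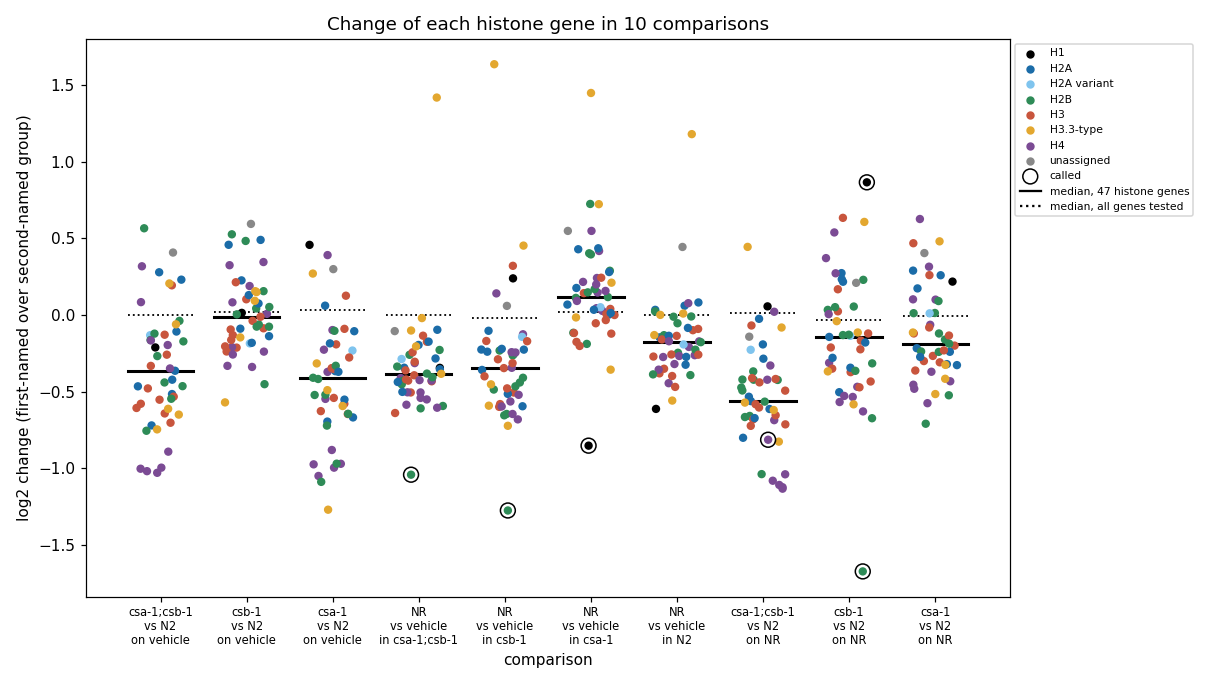
Log2 change of each of the 47 histone genes (points, coloured by class) in the 10 comparisons, first-named over second-named group, with the median of the histone genes (solid bar) and of all genes tested (dotted bar), and circles around called genes. The histone median is −0.56 in the double mutant against N2 on NR (−0.08 after normexp background correction), and his-11 lies lowest among the histone genes in csb-1 worms under NR (−1.28) and in csb-1 against N2 on NR (−1.67).

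Linker histone. his-24, the H1 gene measured by 6 probes, was lower under NR in csa-1 and higher in csb-1 than in N2 when both had NR. In csa-1 its Z-scores were 1.66, 1.63, 1.77 and 1.82 under NR, against 1.90, 1.95, 1.89 and 2.05 on vehicle. The NR arrays all lay below the vehicle arrays, and the log2 change was −0.85 (SE 0.20, adjusted p = 0.0122). The 6 probes gave log2 changes of −0.94 to −0.77. Without csa-1 NR replicate 4, the array at odds with its label, the change was −0.97 (adjusted p = 0.0110). The call was lost after normexp (adjusted p = 0.31), with only the 2 groups compared (0.14), after 75th percentile scaling, where the Z-ratio missed its limit, without csa-1 vehicle replicate 4 (adjusted p = 0.063), without csa-1 NR replicate 2 (0.056) and without csa-1 NR replicate 1, where the Z-ratio again missed its limit.

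In csb-1 worms on NR his-24 read 1.87, 1.87, 1.89 and 1.94, against 1.68, 1.61, 1.57 and 1.79 in N2 on NR. The groups did not overlap, and the log2 change was 0.86 (SE 0.20, adjusted p = 0.0121), with 0.86 to 0.97 over the 6 probes. The call was lost after normexp (log2 change 0.85, adjusted p = 0.67) and without N2 NR replicate 3 (adjusted p = 0.057). On vehicle the mean was 1.83 ± 0.08 in csb-1 and 1.83 ± 0.08 in N2 (SD, n = 4 each), a log2 change of 0.01. NR against vehicle gave −0.61 in N2 (adjusted p = 0.12), 0.24 in csb-1 and −0.35 in the double mutant. The difference between the NR responses of csb-1 and N2 was 0.85 (SE 0.29) and missed the threshold (adjusted p = 0.47). It was 1.13 (adjusted p = 0.048) without the 5 narrow arrays, where 1069 of 25497 genes passed this term, against 20 with all arrays.

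H2A. None of the 8 H2A genes or of the variant his-35 was called in any of the 10 comparisons. The brightest H2A probe was that of his-43. In the double mutant on NR it read 2.10, 2.02, 2.28 and 2.28, against 2.42, 2.50, 2.30 and 2.33 in N2 on NR, a log2 change of −0.80 (SE 0.47, adjusted p = 0.45). The double mutant arrays all lay below those of N2, the closest pair by little, but after normexp the change of his-43 was 0.39. his-61, which shares a pattern with his-47 and not with the other H2A genes, was 1.08, 0.974, 1.1 and 1.03 in csb-1 on vehicle, against 0.843, 0.863, 0.990 and 0.991 in N2 on vehicle. Its log2 change of 0.46 (SE 0.16) had the smallest adjusted p of the histone genes there (0.24), the groups overlapped, and after normexp the change of his-61 was −0.01. The 5 probes of his-47 disagreed for NR in the double mutant, with log2 changes of −0.44 (the brightest) to 0.16. his-35 lay between 1.95 and 2.27 on all 32 arrays, and its log2 changes in the 10 comparisons ran between −0.29 and 0.05, but between −0.48 and 0.58 after normexp.

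H2B. The H2B gene his-11, in the histone cluster on chromosome II, held the largest called changes of any histone gene. In csb-1 its Z-scores were 0.705, 0.761, 0.670 and 0.671 under NR, against 0.987, 1.09, 1.01 and 1.08 on vehicle. The NR arrays lay apart from the vehicle arrays, and the log2 change was −1.28 (SE 0.27, adjusted p = 0.0060). In the double mutant it was 1.04, 1.07, 1.1 and 0.935 under NR, against 1.35, 1.38, 1.25 and 1.28 on vehicle, again without overlap and with a log2 change of −1.04 (SE 0.27, adjusted p = 0.0236). The 5 probes of his-11 gave −1.28 to −1.16 in csb-1 and −1.13 to −0.98 in the double mutant.

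In N2 and csa-1 his-11 did not pass the test. N2 arrays read 1.09, 1.18, 1.17 and 1.15 under NR, against 1.18, 1.15, 1.03 and 1.29 on vehicle, a log2 change of −0.05 (adjusted p = 0.95). In csa-1 3 NR arrays read 1.11, 1.22 and 1.27, against 1.08, 1.09, 1.21 and 1.16 on vehicle, while the fourth, the array labelled csa-1 NR replicate 4, read 0.741. That value lies within the range of the csb-1 NR arrays, and it is the array on which the csb-1 probe also went against the label. On NR, csb-1 stood below N2 by −1.67 (SE 0.27, adjusted p = 0.00068, −1.67 to −1.45 over the probes), with every csb-1 array under every N2 array, whereas the double mutant differed from N2 by −0.42 (adjusted p = 0.49). Without the doubted array the adjusted p was 1.9e-06 for csb-1 against N2 on NR, 0.00018 for NR in csb-1 and 0.0016 for NR in the double mutant.

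The other genes near his-11 moved less. In the cluster of 13 histone genes on chromosome II, 5 others were on the array (his-9, his-26, his-42, his-43 and his-44), and their log2 changes were −0.60 to −0.40 for NR in csb-1, −0.61 to −0.35 for NR in the double mutant and −0.63 to −0.13 in csb-1 against N2 on NR. Over the 9 other H2B genes the same comparisons gave −0.66 to −0.23, −0.61 to −0.23 and −0.67 to 0.23. The NR response of his-11 differed from that of N2 by −1.22 in csb-1 (SE 0.39, adjusted p = 0.43) and by −0.99 in the double mutant (adjusted p = 0.55), so that a difference between strains was not shown. The call for NR in csb-1 was lost after normexp background correction (log2 change −0.77, adjusted p = 0.22). The call for NR in the double mutant was lost without the 5 narrow arrays (log2 change −1.0, adjusted p = 0.060) and when double mutant vehicle replicate 1 or 2 or NR replicate 1 or 4 was left out.

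Of the remaining H2B genes none was called. his-58 read 0.807, 0.636, 0.505 and 0.702 in csa-1 under NR, against 0.571, 0.530, 0.384 and 0.392 on vehicle, with overlapping groups and a log2 change of 0.72 (SE 0.24, adjusted p = 0.080). his-41, on chromosome V, read 1.67, 1.58, 1.63 and 1.58 in csb-1 under NR, against 1.68, 1.78, 1.73 and 1.76 on vehicle. All its NR arrays lay below the vehicle arrays, with a log2 change of −0.47 (SE 0.16, adjusted p = 0.092). The brightest H2B probe was that of his-66, whose log2 change in csa-1 against N2 on vehicle was −0.97 (SE 0.43, adjusted p = 0.15). his-62 changed by −1.09 in the same comparison, with an SE of 0.55 (adjusted p = 0.20).

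H3. No gene among the 11 of the replication-dependent class was called. The class kept close together: in the double mutant on NR all 11 were lower than in N2 on NR, with log2 changes of −0.72 to −0.07 and a median of −0.58 (after normexp 7 were lower and the median was −0.15), but the arrays of the groups failed to overlap for only 2 of them, his-9 and his-45. The brightest, his-49, read 2.07, 2.05, 2.15 and 2.15 in the double mutant on NR, against 2.25, 2.26, 2.14 and 2.24 in N2 on NR, with 1 N2 array inside the range of the mutant and a log2 change of −0.44 (SE 0.31, adjusted p = 0.53), which was 0.60 after normexp. his-40 changed by −0.61 in the double mutant against N2 on vehicle (SE 0.32, adjusted p = 0.28) and by −0.58 on NR (adjusted p = 0.42), the second of which was 0.04 after normexp. The 6 probes of his-32 disagreed. They gave −0.68 to −0.04 in the double mutant against N2 on NR and −0.37 to 0.45 in csb-1 against N2 on NR. In both comparisons the brightest probe, which stands for the gene, gave the lowest value.

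H3.3 type. his-70 was higher under NR than on vehicle in all 4 strains, and in the double mutant it was the only histone gene with a higher value under NR (after normexp 21 of 47 were lower). In the double mutant it read 0.0390, 0.0781, 0.0352 and 0.0265 under NR, against −0.441, −0.238, −0.316 and −0.342 on vehicle. In csb-1 it read −0.0500, −0.110, −0.139 and −0.119 under NR, against −0.612, −0.477, −0.481 and −0.596 on vehicle. In csa-1 it read −0.228, −0.222, −0.172 and −0.0218 under NR, against −0.507, −0.851, −0.325 and −0.506 on vehicle. In these 3 strains every NR array was above every vehicle array, and so it was in N2, where NR arrays read −0.0455, −0.0693, −0.0284 and −0.152 and vehicle arrays −0.665, −0.178, −0.483 and −0.230. Histone genes without overlap and higher under NR numbered 1 in each strain, this gene, where 9.59% of all genes were such in the double mutant, 10.9% in csb-1, 6.08% in csa-1 and 3.92% in N2. In N2 the groups overlapped after 75th percentile scaling and after quantile normalization (0 genes).

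The log2 changes of his-70 under NR were 1.42 in the double mutant (SE 0.32, adjusted p = 0.0089), 1.63 in csb-1 (adjusted p = 0.0033), 1.45 in csa-1 (adjusted p = 0.0080) and 1.18 in N2 (adjusted p = 0.053). The first 3 pass the adjusted p, as 4.92%, 4.67% and 5.31% of all genes do. Even so, his-70 was not called, because its mean Z-score was below 0, the mean of the array. Over all arrays its Z-score averaged −0.26. The responses of the mutants exceeded that of N2 by 0.24 to 0.46, with adjusted p between 0.86 and 0.99, so that no difference between strains was shown. Without the doubted csa-1 NR replicate 4, NR in csa-1 gave 1.27 (adjusted p = 0.0415) and the adjusted p in N2 was 0.048. After normexp background correction, which alters dim probes most, the NR changes fell to 0.44 in the double mutant, 0.55 in csb-1 and 0.32 in csa-1, and none passed (adjusted p 0.24, 0.22 and 0.77). his-69, its neighbour on chromosome III, had log2 changes under NR of −0.21 in the double mutant, −0.72 in csb-1, −0.02 in csa-1 and 0.01 in N2.

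Sperm genes also read higher under NR. Of 38 sperm markers, mostly genes of the major sperm protein, 31 were tested, and 16 were called higher under NR in the double mutant, 22 in csb-1, 2 in csa-1 and 1 in N2, with median log2 changes of 1.1, 1.34, 0.83 and 0.67. Of all genes, 0.886% were called higher in the double mutant, 1.01% in csb-1, 1.56% in csa-1 and 132 of 25497 in N2. Whether the probes of the major sperm protein genes read these genes apart was not tested, so that the counts may not be of independent genes. The mean Z-score of the sperm markers on single arrays was 1.03 to 1.05 under NR and 0.752 to 0.804 on vehicle in the double mutant, and 0.905 to 0.942 under NR and 0.558 to 0.644 on vehicle in csb-1. It was 0.791 to 0.922 under NR and 0.488 to 0.831 on vehicle in csa-1, and 0.984 to 1.02 under NR and 0.539 to 0.923 on vehicle in N2. The part of the sperm genes in the change of his-70 was not tested. In whole worms, fewer cells of a type and less RNA per cell cannot be told apart.

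**Figure D4:**
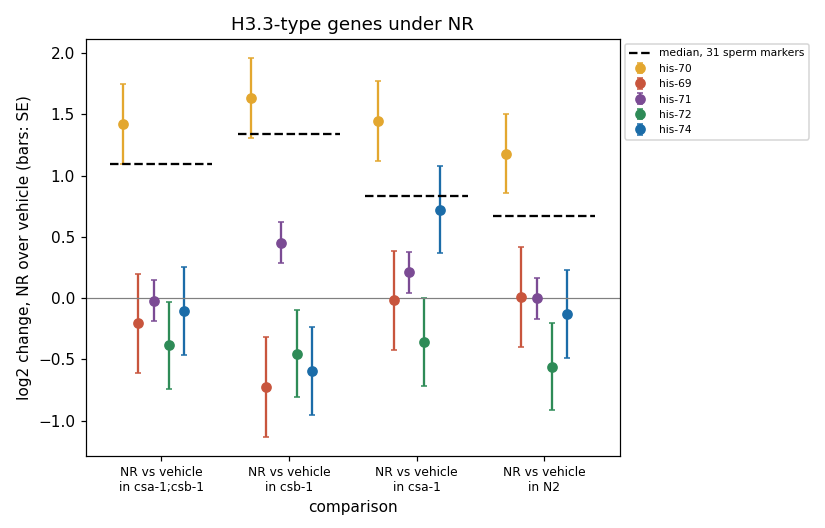
Log2 change under NR over vehicle (vertical axis, bars give the SE) of the 5 H3.3-type genes in each strain, with the median of 31 sperm markers as a dashed line. his-70 lies at 1.18 to 1.63 in the 4 strains, the other H3.3-type genes at −0.72 to 0.72.

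The other H3.3-type genes gave no call. his-71, an H3.3 gene, read 1.04, 1.18, 1.15 and 1.03 in csb-1 on NR, against 0.940, 0.946, 0.896 and 0.969 in N2 on NR. The groups did not overlap and the log2 change of 0.61 (SE 0.17) had an adjusted p of 0.032 (5.25% of all genes pass 0.05 there, and 3 of the 47 histone genes), but its Z-ratio of 1.22 missed the limit. For his-72, the other H3.3 gene, the double mutant on vehicle differed from N2 by −0.75 (SE 0.35, adjusted p = 0.25), the smallest adjusted p of the histone genes in that comparison. his-74 read 1.95, 2.18, 1.91 and 2.02 in csa-1 on vehicle, against 2.68, 2.50, 2.05 and 2.18 in N2 on vehicle. The highest csa-1 arrays overlapped the lowest of N2, and the 2 highest N2 values came from the narrow arrays. The log2 change was −1.27 (SE 0.36, adjusted p = 0.058), and without the 5 narrow arrays it was −0.58 (adjusted p = 0.82). Without those arrays his-74 was instead called higher under NR in csa-1 (0.92, adjusted p = 0.0110), where the value with all arrays was 0.72 (adjusted p = 0.25). Over all genes 515 of 25497 were then called higher there, in place of 399.

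H4. On NR the H4 genes of the double mutant had a median change of −0.93 against N2 on NR (range −1.13 to 0.02). This direction depends on the background correction. The median was −0.81 after 75th percentile scaling, where that of all genes was −0.14, and −0.49 after quantile normalization. After normexp it was 0.11, with 5 of 10 lower. In 8 of the 10 genes every double mutant array lay below every N2 array, where 10.9% of all genes did, and in 2 of them after quantile normalization. All 6 genes of the largest H4 pattern are among these 8, which are therefore not independent. The brightest, his-1, read 2.52, 2.43, 2.72 and 2.65 in the double mutant on NR, against 2.93, 2.95, 2.81 and 2.81 in N2 on NR. Its log2 change of −1.11 (SE 0.58) did not pass the test (adjusted p = 0.40), whose shared estimate of the spread includes the narrow vehicle arrays, on which his-1 read 3.17 to 3.3. After normexp the change of his-1 was 0.71 (adjusted p = 0.74). Without the narrow arrays the change of his-1 in Z-scores had an SE of 0.31 and an adjusted p of 0.027. In this comparison 6 histone genes were then called in place of 1, all of them H4 genes (his-1, his-26, his-31, his-37, his-60 and his-67). All but his-37 belong to the largest H4 pattern. Calls over all genes rose as well, with 425 of 25497 lower in place of 207.

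his-37, an H4 gene with a pattern of its own on chromosome V, was the single called histone gene in this comparison with all arrays. It read 1.32, 1.34, 1.42 and 1.25 in the double mutant on NR, against 1.51, 1.58, 1.56 and 1.55 in N2 on NR. The groups were apart, and the log2 change was −0.81 (SE 0.22, adjusted p = 0.0495, where 1.98% of all genes are at or below 0.05), with −0.81 to −0.65 over its 2 probes. The call sits at the threshold: it was lost without any 1 of the 4 N2 NR arrays and without double mutant NR replicate 1, 2 or 4, and also after 75th percentile scaling, after normexp (adjusted p = 0.11), with the deposited scores and with the mean over its probes. At the other end of the class, his-18 differed by 0.02 between the double mutant and N2 on NR, and his-5 by −0.33 (SE 0.20, adjusted p = 0.47).

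Over all classes, 17 of the 47 histone genes (36.2%) lay without overlap below N2 in the double mutant on NR, against 10.9% of all genes, and 1 lay above (2.13%), his-70, against 13.5%. The 17 were the 8 H4 genes, 3 each of H2A and H2B, 2 of H3 and his-74. They are not independent: all 6 genes of the largest H4 pattern are among them. The 3 H2A genes (his-33, his-43 and his-65) share 1 pattern, and the H2B genes his-8 and his-34 share another. The share of 36.2% thus counts copies that move together, and it was not tested against that of all genes. This count depends on the scaling. It was 14 (29.8%, against 16.4% of all genes) after 75th percentile scaling and 5 (10.6%, against 9.62%) after quantile normalization, both added after seeing the data. The SD of log2 intensity also separated these groups, at 3.84 to 4.00 on the double mutant arrays and 3.71 to 3.83 on the N2 arrays, and its part in the count was not tested beyond these scalings. Such counts were lower elsewhere. In the NR comparison of the double mutant 5 genes lay below vehicle (10.6%, against 10.3% of all genes), in csb-1 2 (5.61% of all genes) and in csa-1 1 (3.80%). On NR, csb-1 against N2 gave 5 higher and 3 lower (12.6% and 9.23% of all genes) and csa-1 against N2 gave 4 higher and 0 lower (7.69% and 3.91%). In the 3 comparisons on vehicle it was 0 in either direction, where 0.879 to 2.89% of all genes were higher and 1.19 to 1.67% lower.

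**Figure D5:**
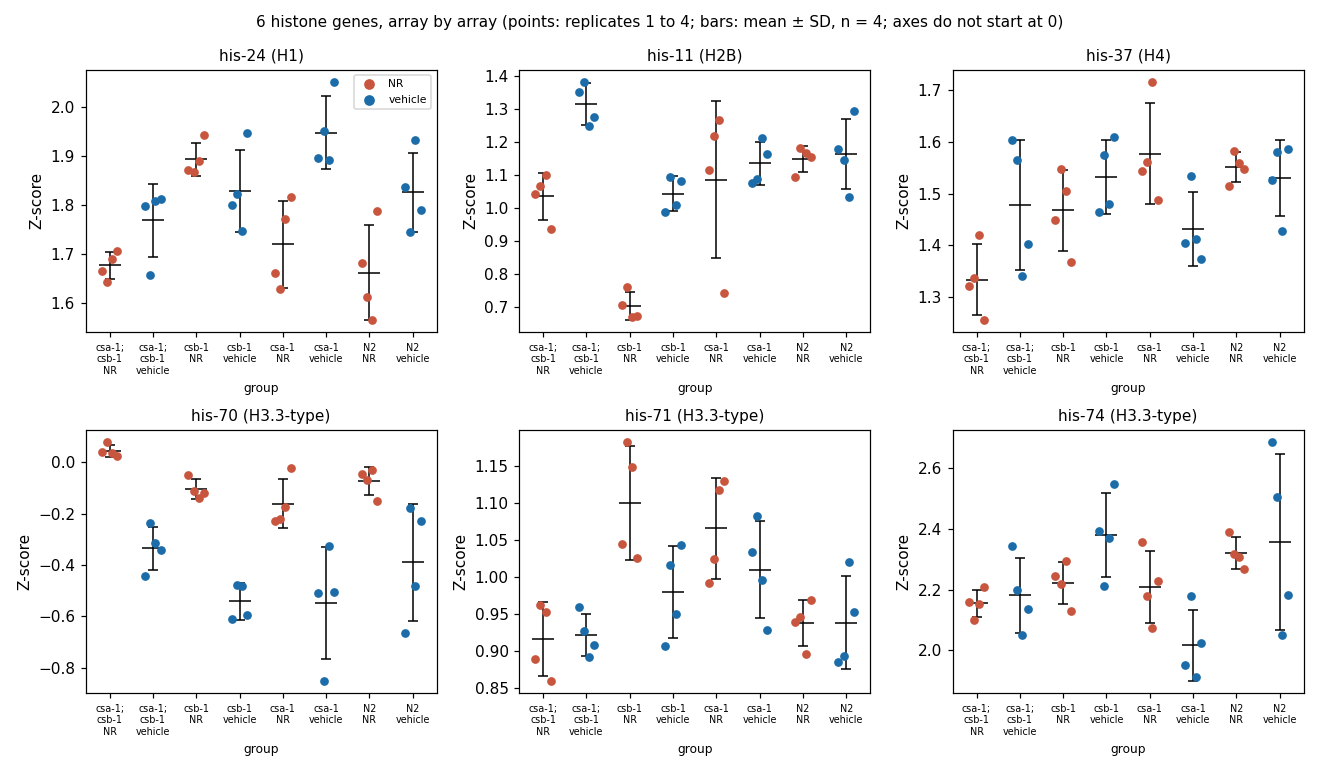
Z-scores of 6 histone genes on every array (points), with the mean ± SD of each group (n = 4), NR left of vehicle in each strain; axes do not start at 0. his-11 is lowest in csb-1 under NR (0.670 to 0.761), and his-70 is above its vehicle arrays under NR in each of the 4 strains.

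Differences between strains in the response to NR, and the departure of the double mutant from the sum of both single mutants on vehicle, were tested as interaction terms in the same model. None of the 47 histone genes passed an adjusted p of 0.05 in limma in any of the 4 terms (0 in each), which 0.0196 to 0.129% of all genes did. At an unadjusted p under 0.05 there were 1 for the double mutant minus N2, 2 for csb-1 minus N2, 1 for csa-1 minus N2 and 3 for csa-1 by csb-1, where 6.55 to 11.6% of all genes passed this limit. The largest in csa-1 by csb-1 were his-70 (1.37, SE 0.46, adjusted p = 0.21) and his-11 (1.12, SE 0.39, adjusted p = 0.22).

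Genes that work with histones gave few calls. The 10 other histone genes were the linker histones hil-1 to hil-7, the H2A.Z gene htz-1 and the centromeric H3 genes hcp-3 and cpar-1. Of these, hil-7 was called lower under NR in the double mutant (−0.81, adjusted p = 0.024) and in N2 (−0.86, adjusted p = 0.032). Thus 1 of 10 was called lower in each, where 1.39% of all genes were in the double mutant and 90 of 25497 in N2. hil-3 was called higher in csb-1 than in N2 on NR (0.82, SE 0.13, adjusted p = 0.00069), where 2.06% of all genes were called higher. In this comparison his-24, also a linker histone, was higher too, but 7 of these 10 genes were lower (median log2 change −0.06). Of 12 genes of histone mRNA maturation 11 were tested and 0 were called in the 10 comparisons, although ego-1, an RNA-dependent RNA polymerase, passed the adjusted p under NR in csb-1 (−0.65, adjusted p = 0.0069). Of 14 histone chaperones 0 were called, and hira-1, the chaperone that deposits H3.3, passed the adjusted p under NR in the double mutant (−0.66, adjusted p = 0.016). Both missed the limit on the Z-ratio.

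Of 24 genes of DNA replication 1 was called, cyd-1, the cyclin D gene. It was higher in csb-1 than in N2 on NR (0.91, adjusted p = 0.0080), where 2.06% of all genes were called higher. Of 30 germline and oocyte markers 0 were called in any comparison, cgh-1 alone passing the adjusted p (under NR in csb-1, −0.64, adjusted p = 0.034). Their median log2 change was −0.44 in the double mutant and −0.37 in csa-1 against N2 on vehicle, where histone medians were −0.36 and −0.41. Under NR against vehicle it was 0.32 in the double mutant, −0.33 in csb-1, −0.23 in csa-1 and −0.11 in N2, and in the double mutant against N2 on NR −0.04, where the histone median was −0.56. The part of germline content in the histone values was not tested. Of 8 embryo markers 3 (pes-10, tbx-37 and tbx-38) were called higher in csb-1 than in N2 on NR, where 2.06% of all genes were. This is the comparison with the calls of his-11 and his-24. There the mean Z-score of the 8 on single arrays was 0.187 to 0.269 in csb-1 and −0.0255 to 0.127 in N2. Of 8 muscle markers 3 were called lower under NR in csa-1 (0.635% of all genes) and 1 in csb-1 (0.494%). On NR 2 were called lower in csb-1 (0.867% of all genes) and 1 higher in the double mutant (0.498%) than in N2. Of 7 epidermis markers tested at most 2, of 8 intestine markers at most 1 and of 8 neuron markers at most 1 were called in any comparison. The part of these cell types in the histone values was not tested.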

How the data were processed

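Messenger RNA was measured in whole worms on 32 one-colour Agilent arrays. The authors labelled cRNA with Cy3 from total RNA, scanned the arrays and deposited a Feature Extraction (11.5.1.1) file for each, whose processed signal, a background-subtracted intensity on a linear scale, was used. The authors also deposited a table of scores, each column of which equals the Z-score of the log signal over all spots to within 0.005. It held 0 columns of other samples and served as an alternative. For normexp background correction the median foreground intensity was used, the mean not being a column of the files.

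Of 45220 spots per array, 1417 were controls. Of 43603 probes, 289 with an outlier mark were left out, and 0 spots were saturated. Of 28476 systematic names, 22730 matched the RefSeq table (WBcel235) and 5746 did not and were kept under their own name. Coordinates are left out, the array having been designed on an earlier assembly, and no probe or protein sequence is printed. Log2 intensity was turned into Z-scores per array, as in the study's methods, which also give the limits for a call. Differences were fitted with limma 3.58.1 (R 4.3.3, data.table, version 1.17.8) as 8 group means over all 32 arrays, with Benjamini-Hochberg adjustment over 25497 genes. Summaries used Python 3.11.15, pandas 2.3.3 and scipy 1.17.1. The number of arrays limits the precision. Data for csa-1 against N2 on vehicle (25497 genes) were simulated with noise independent between genes and arrays, and only genes with a mean Z-score above 0 were shifted. By adjusted p alone, 62% of 100 genes shifted by 1 on the log2 scale and 98% of 100 shifted by 2 were recovered, and 2 unchanged genes passed. The simulation held no narrow arrays and no array effects shared by genes, so that these figures do not describe the real arrays or the full rule for a call. With 4 arrays against 4, an exact two-sided permutation test of a single gene cannot go below p = 0.029, and none is printed.

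Same-numbered replicates did not deviate together (r −0.50 to 0.38 over 40 pairs), so numbers were not taken as pairs. Genes named were the H1, H2A variant and H3.3-type genes, the brightest of each other class, the 2 highest and 2 lowest statistics of each comparison and every called member, 22 in all. Genes in list sentences follow from their lists, and those in counts of 17 or fewer were named after their values were seen. The members and lists were chosen with earlier results of these data known. Alternatives were 75th percentile scaling, quantile normalization, normexp (offset 50), the deposited scores, the mean over probes, a filter on probes above background on at least 4 arrays, adjusted p alone, only the 2 groups compared, the replicate number as a block, and leaving out each array.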

Additional observations from a re-analysis of the deposited data

Results flagged for a closer look

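Each group of 4 arrays was searched for a single array that stood apart from the other 3 in the Z-score of a histone gene. Over the 22 named histone genes and the mean of all 47, 6 of 184 such groups held one, and chance alone gives about 1 in 20. his-24, the linker histone gene, read 1.66 on double mutant vehicle replicate 2, against 1.8 to 1.81 on the others. his-35, the H2A variant gene, read 2.20 on csa-1 vehicle replicate 2, against 2.0 to 2.01, and 2.18 on csb-1 vehicle replicate 4, against 2.02 to 2.04. Both arrays are among the 5 narrow ones, on which the mean Z-score of the histone genes was higher. his-73 read 0.235 on the same csb-1 array, against −0.240 to −0.207 on the others of its group. his-47, an H2A gene, read 0.360 on csb-1 vehicle replicate 2, against 0.490 to 0.509. his-58, an H2B gene, read 0.531 on csb-1 NR replicate 4, against 0.678 to 0.700.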

How the results depend on the processing

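Counts of called histone genes were small, so that 1 gene at the threshold moved most of them. In csa-1 against N2 on vehicle (0 called) his-74 brought the count to 1 after 75th percentile scaling, after quantile normalization and with only genes above background on at least 4 arrays. For NR in csa-1 (1) it was 2 after quantile normalization, 0 after normexp, 2 with adjusted p alone and 0 with only the 2 groups compared. For NR in csb-1 (1) it was 0 after normexp and 2 with adjusted p alone, and for NR in the double mutant (1) it was 2 with adjusted p alone. In csb-1 against N2 on NR (2) it was 1 after normexp. In the double mutant against N2 on NR (1) it was 0 after 75th percentile scaling, normexp, the deposited scores and the mean over all probes, and 6 with only the 2 groups compared. Without the 5 narrow arrays, a choice made after seeing the data, it was 6 there, 2 for NR in csa-1, 0 for NR in the double mutant and 1 for the NR response of csb-1 minus N2 (his-24). Over all genes the double mutant against N2 on NR gave 334 calls. It gave 776 with only the 2 groups compared and 685 without the narrow arrays. With the replicate number as a block, csa-1 against N2 on vehicle gave 1 call and no other count moved.

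With single arrays left out, the counts ran between 0 and 2 for csa-1 against N2 on vehicle, 0 and 1 for the double mutant against N2 on vehicle, 0 and 2 for NR in csa-1, 1 and 1 for NR in csb-1, 0 and 1 for NR in the double mutant, 1 and 2 for csb-1 against N2 on NR, and 0 and 1 for the double mutant against N2 on NR. They stayed at 0 in the other 3 comparisons and the 4 interaction terms. Where a cause is not given above, it was not tested.

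Among single genes, his-11 in csb-1 against N2 on NR was called in all 18 alternatives (adjusted p 1.9e-06 to 0.0086), his-11 for NR in csb-1 in 17 and in the double mutant in 13, his-24 in csb-1 against N2 on NR in 16 of 18, his-24 for NR in csa-1 in 11 of 17 and his-37 in 7 of 18. None of these 6 changes turned its direction. Of the 220 changes of the 22 named genes in the 10 comparisons, called or not, 71 turned after normexp, 41 after quantile normalization, 37 without the narrow arrays, 28 after 75th percentile scaling and 3 with the deposited scores. Over all genes, csa-1 against N2 on vehicle gave 170 calls, against 0 after normexp, 0 with only the 2 groups compared and 0 without the narrow arrays, but 356 after 75th percentile scaling, 380 after quantile normalization, 478 with the background filter and 353 with the replicate block. NR in csa-1 gave 561, against 174 after normexp, 62 with only the 2 groups compared and 836 without the narrow arrays. The 75th percentile scaling moved the median of all genes to between −0.16 and −0.06 in the 10 comparisons, and changes are to be read relative to it. Weaker probes, such as that of his-70 (well above background on 29 of 32 arrays), are limited by the signal over background.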
